A study of Mus musculus with 12 samples.

Results

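The 10 mouse genes described here encode hepcidins, a ligand that raises hepcidin, and proteins that carry, take up, store, export or sense iron. They are the hepcidin genes Hamp and Hamp2, the ferroportin gene Slc40a1, the transferrin gene Trf, the transferrin receptor genes Tfrc and Tfr2, the ferritin genes Fth1 and Ftl1, the hemochromatosis gene Hfe and the ligand gene Bmp6. They were chosen by symbol, not by a rule on their values, from the 16821 genes listed for each mouse. Earlier results of these data were known when they were chosen. Levels are in FPKM, read fragments scaled to transcript length and to all fragments mapped in a library. All 10 genes reached 1 FPKM in 6 or more of the 12 mice, as did 10241 genes in all, which were the genes tested. Liver was taken from adult male C57BL/6J mice, bought at 8 weeks of age and given 1 week to adapt. The 6 mice of the chronic exercise group (Exe) were made to run at moderate intensity on a treadmill, in sessions of 60 min on 5 days of each week, over 6 weeks. The 6 sedentary control mice (Con) were kept in the same room and did not run. The livers were perfused with saline and collected within 24 h of the last run, and every mouse gave 1 library, named here by its group and its number from 1 to 6. The authors state that outliers were excluded by principal component analysis, and do not say whether any mice were left out. The spread between mice may therefore be that of a selected set. The mice are separate animals of one inbred strain, and the whole liver was measured, so that for any gene fewer cells of a type and less RNA per cell cannot be told apart.

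Hepcidin is a peptide hormone that hepatocytes secrete. It binds ferroportin, the iron exporter of macrophages, hepatocytes and enterocytes, and causes its loss from the membrane, which holds iron inside these cells and lowers iron in plasma. Hepatocytes raise hepcidin transcription through BMP6, a ligand from sinusoidal endothelial cells, with the co-receptor hemojuvelin and SMAD proteins, and HFE and TFR2 take part in sensing transferrin that carries iron. Interleukin-6 raises it through STAT3. Inside the cell, iron regulatory proteins bind the mRNAs of ferritin, ferroportin and Tfrc, so ferritin and ferroportin protein can change without a change in mRNA, while Tfrc mRNA is stabilized when iron is low.

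The mouse carries a pair of hepcidin genes, and the stretch of DNA before each start shows how alike they are and where they differ in the letters known for the BMP and STAT3 inputs. The 250 bases before the start of Hamp (84506) and of Hamp2 (66438) are printed from RefSeq on GRCm38.p6, both read on the minus strand. Hamp lies at chr7:30944030-30944279 and Hamp2 at chr7:30924182-30924431. Capitals mark 2 motifs: the core of the BMP-responsive element (GGCGCC) and a STAT site (TTCNNNGAA), each searched on both strands.
Hamp: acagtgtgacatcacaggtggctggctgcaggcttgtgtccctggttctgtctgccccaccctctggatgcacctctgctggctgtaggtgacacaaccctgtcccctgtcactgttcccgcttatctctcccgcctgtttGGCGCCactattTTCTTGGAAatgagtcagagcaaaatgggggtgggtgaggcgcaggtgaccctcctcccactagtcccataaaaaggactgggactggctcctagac
Hamp2: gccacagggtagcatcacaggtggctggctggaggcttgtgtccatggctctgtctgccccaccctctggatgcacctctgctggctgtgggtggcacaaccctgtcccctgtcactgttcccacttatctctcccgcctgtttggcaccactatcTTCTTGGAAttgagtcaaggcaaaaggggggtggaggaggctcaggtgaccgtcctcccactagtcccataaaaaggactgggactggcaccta
The aligned stretches were identical in 227 of 253 columns (89.7%), with 20 substitutions and 6 columns with a gap. The STAT letters TTCTTGGAA stood in both, from 97 to 89 bases before the start in Hamp and from 94 to 86 bases before it in Hamp2. The BMP core GGCGCC stood from 109 to 104 bases before the start in Hamp, and the aligned letters in Hamp2 were GGCACC. This is the substitution G145A, with Hamp's base first and positions counted from 1 at the 5′ end of the Hamp sequence printed above. Of 32851 RefSeq promoter windows of the same 250 bases, 9.59% held GGCGCC and 7.02% held TTCNNNGAA. RefSeq windows were found for 8 of the 10 genes, and among the other 6 of these, 1 window of Tfrc held GGCGCC and none held the STAT letters. A match describes letters and not binding. Of all 150-base stretches of the Hamp and Hamp2 transcripts in GENCODE M21, 0% occurred in a transcript of another gene. The pair can thus be told apart by exact stretches of that length. Shorter reads and matches with mismatches were not checked.

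Before the comparisons, the libraries and the cells behind them were compared. Summed FPKM ranged from 735200 to 820107 over the mice, and the relative depth, from 59 genes so low that their FPKM stepped in whole multiples, was between 0.987 and 1.02. The depth in reads is unknown, so no counting error is given. Hepatocyte markers were present at high levels (Alb 37008 to 48015 FPKM in Exe and 29517 to 41885 in Con). The 11 Kupffer cell markers summed to 316 to 580.9 FPKM in Con and 228.5 to 520.8 in Exe, and the 11 markers of sinusoidal endothelium to 92.14 to 150.9 and 107.8 to 136.7. Con 4 stood apart in the hepcidin genes, as described next. Its relative depth was 1.02, and its summed hepatocyte markers (77830 FPKM) lay inside the range of its group (64510 to 82790). So did its Kupffer cell sum (415.9 FPKM) and endothelial sum (132.2 FPKM). Its stellate cell markers summed to 197.75 FPKM, the highest of all mice. This sum was 98.78 to 180.86 FPKM in the other controls and 95.02 to 180.44 in Exe. Several single stellate cell markers were also highest in Con 4, and the others were not. The part of stellate cell content in the hepcidin values was not tested. Results that rest on Con 4 are given with and without it.

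Hamp, the main hepcidin gene of the mouse, was at a median of 1272 FPKM in Con and 1083 FPKM in Exe, but Con 4 was far below every other mouse. In Con the values were 1243.88, 686.15, 1440.07, 25.82, 1901.56 and 1300.56 FPKM for mice 1 to 6, and in Exe they were 1142.58, 733.06, 907.46, 1261.46, 1029.76 and 1136.00 FPKM. The Exe mice stayed within a narrow range inside that of Con, and the highest and the lowest of the 12 mice were both controls. Means were 1100 ± 654.9 FPKM in Con and 1035 ± 190 in Exe (SD, n = 6 each). The log2 fold change (Exe minus Con, on log2(FPKM + 1) as everywhere below) was 0.63 with a standard error of 0.818 and a 95% interval from -1.13 to 2.39. It did not pass the test by limma over all 10241 genes (adjusted p = 0.947), and the exact two-sided permutation test over all divisions of the mice gave p = 0.866. The sign depends on the scale: mean and median FPKM were lower in Exe (ratio of means 0.941), while the mean of the log2 values was higher in Exe. Without Con 4 the mean of the remaining controls was 1314 ± 436 FPKM (ratio 0.787), and the log2 fold change turned to -0.29 (exact permutation p = 0.268). With or without Con 4 the Hamp difference did not exceed the spread between mice.

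Hamp2, the second hepcidin gene, whose product is not known to act on iron as Hamp's does, had a mean of 39.26 FPKM over all mice, against 1067 FPKM for Hamp, and ranged 81.0-fold among them. Con mice 1 to 6 had 25.36, 12.93, 37.43, 1.25, 58.48 and 71.15 FPKM, and Exe mice 1 to 6 had 31.65, 101.29, 54.37, 32.31, 19.57 and 25.37 FPKM. The groups overlapped, with Con 4 the lowest of 12 again and Exe 2 above every control. Means were 34.43 ± 26.76 FPKM in Con and 44.09 ± 30.41 in Exe (SD, n = 6 each), with a log2 fold change of 0.77 and a 95% interval from -0.757 to 2.3 (limma adjusted p = 0.931). The exact permutation test gave p = 0.431. The log2 fold change was 0.10 without Con 4 and 0.49 without Exe 2.

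**Figure D1:**
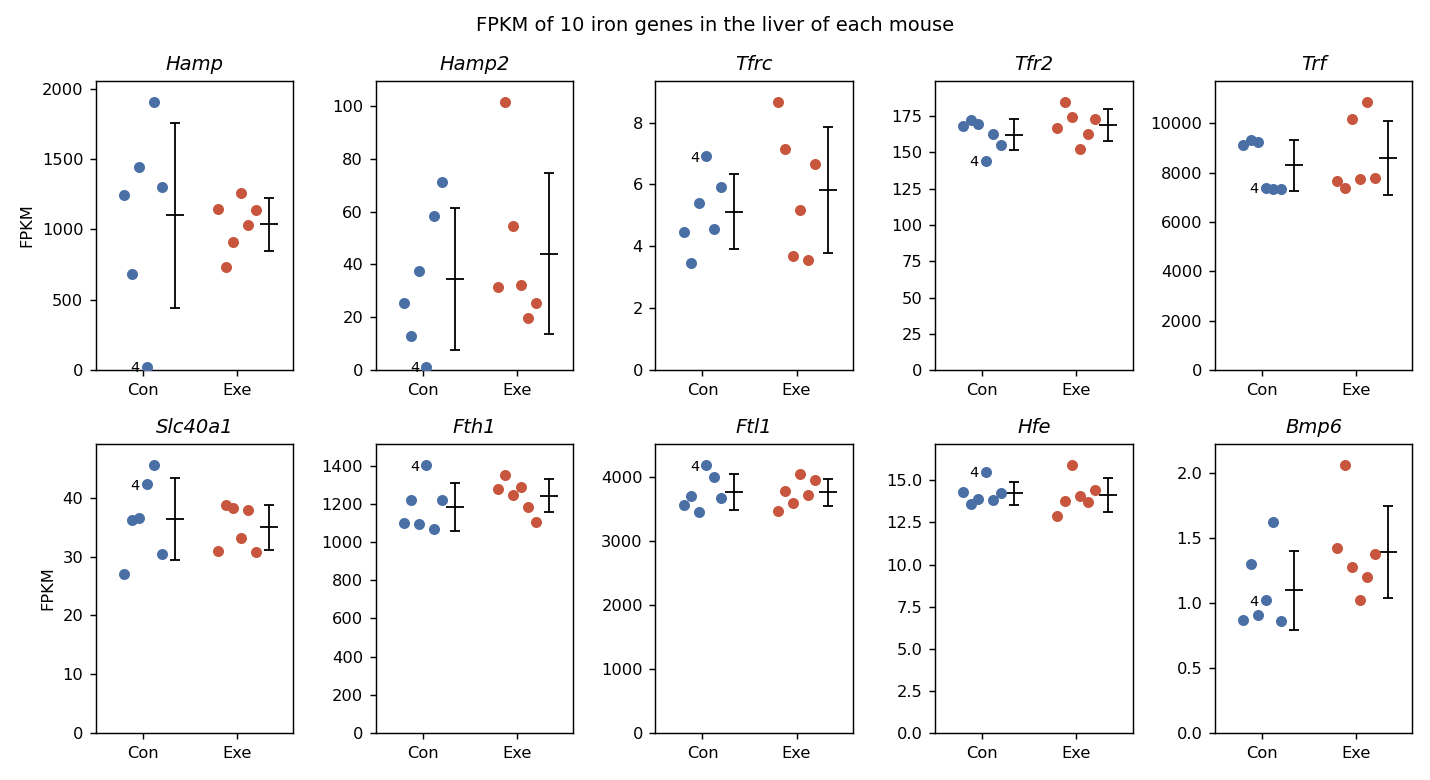
FPKM of the 10 iron genes (vertical axes, linear and from 0) in each of 6 Con mice (blue) and 6 Exe mice (red), with the group mean and SD as a black bar beside the points and Con 4 marked 4. Con 4 lay at 25.82 FPKM for Hamp and 1.25 FPKM for Hamp2, below all other mice, and the groups overlapped for every gene.

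The size of the drop in Con 4 was read against all genes. Hamp in Con 4 was 26.6-fold below the next lowest of the 12 mice and 44.3-fold below the median of the other 11, and Hamp2 was 10.3-fold and 25.8-fold below. For each of the 10241 genes the gap between the lowest and the second-lowest mouse was taken on the log2 scale. The median gap was 0.0587 and the 99th percentile 0.467. Hamp, with 4.68, had the largest gap of all genes tested, and Hamp2, with 2.63, ranked 5. Between them stood Mup17 (3.4) and Mup15 (3.32), genes of major urinary proteins that were lowest in Exe 2, and Cd99 (2.87), lowest in Con 5. This measure was chosen after the values had been seen and carries no test. The other 8 iron genes had gaps from 0.00447 (Trf) to 0.165 (Slc40a1), far under the 99th percentile.

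**Figure D2:**
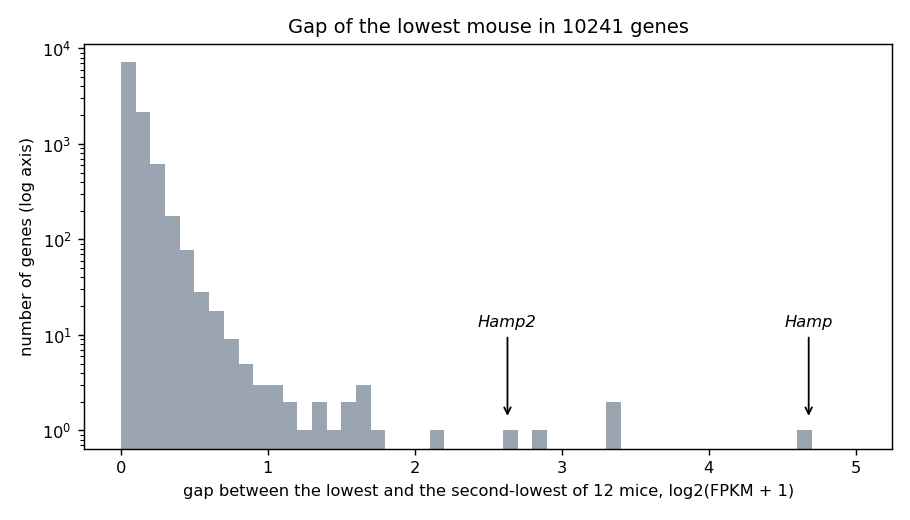
Number of genes (vertical axis, log scale) by the gap between the lowest and the second-lowest of the 12 mice on log2(FPKM + 1) (horizontal axis) for 10241 genes. Arrows mark Hamp at 4.68 and Hamp2 at 2.63, against a 99th percentile of 0.467.

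Some other iron genes of Con 4 also lay at or near the ends of their ranges, though by much less. Genes outside iron handling did so too: Con 4 was highest of 12 for the cell markers Egfl7, Pecam1, Ecm1 and Colec11, and lowest for Cps1. The share of all genes for which Con 4 was highest or lowest was not counted. Among the iron genes, it ranked 4 from the lowest for Trf and Bmp6 and 10 for Tfrc. Con 4 had the highest Fth1 (1402.07 FPKM) and Ftl1 (4183.08) of the 12 mice, the lowest Tfr2 (143.95), and the second highest Slc40a1 (42.31), Hfe (15.52) and hemojuvelin gene Hjv (57.1). Of the genes that interleukin-6 and the acute phase raise, Con 4 was lowest of 12 for Fgl1 (227.78 FPKM), Hp (2001.89), Cp (226.57), Slc39a14 (28.9), Itih4 (463.01), Lcn2 (5.93) and Serpina3n (146.33). Of the 12 acute-phase genes Con 4 was lowest for these last 3 and ranked 2 to 6 from the lowest for the others. Fgl1, Hp, Cp and Slc39a14 come from other lists, Fgl1 from that of BMP-SMAD hepcidin control. They are named here because Con 4 was lowest for them. Other listed genes did not follow: Con 4 ranked 7 from the lowest for Socs3, a STAT3 target, and 3 for Hpx. Its acute-phase sum, 7754 FPKM, was the lowest of the controls, and the lowest Exe sum was 7751. That Exe mouse was Exe 2, with Hamp at 733.06 FPKM and the highest Hamp2 (101.29 FPKM). Con 5, with an acute-phase sum of 8686 FPKM, had the highest Hamp of all (1901.56 FPKM). The part of the acute phase in the low hepcidin of Con 4 was not tested beyond the correlation given further on. The red blood cell markers of Con 4 summed to 903 FPKM, the highest among the controls (235.1 to 903), and their part was not tested either.

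Slc40a1 encodes ferroportin, the target of hepcidin and the exporter of cellular iron. It was at 27.02, 36.16, 36.55, 42.31, 45.58 and 30.41 FPKM in Con and at 31.00, 38.76, 38.31, 33.16, 38.02 and 30.74 FPKM in Exe. The Exe mice lay wholly inside the range of the controls. Means were 36.34 ± 6.973 and 35.0 ± 3.788 FPKM (SD, n = 6 each), the log2 fold change was -0.04 and its 95% interval ran from -0.288 to 0.212 (limma adjusted p = 0.977). The estimate crossed 0 to 0.01 without Con 4. In the liver Kupffer cells carry much ferroportin, and all 11 Kupffer cell markers had a negative log2 fold change (median -0.23), although 0 of them were at an unadjusted p under 0.05. The part of Kupffer cell content in the ferroportin values was not tested by adjustment. Over the 12 mice Slc40a1 and the mean of these markers gave r = 0.0694 and rho = -0.0559 (permutation p = 0.829 and 0.872), with r = -0.174 within Con and 0.349 within Exe.

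Trf encodes transferrin, the plasma carrier of iron, and was the most abundant of the 10 genes, at a mean of 8448 FPKM. Con mice had 9112.66, 9317.66, 9258.30, 7387.89, 7333.22 and 7356.00 FPKM, and Exe mice 7666.16, 7382.48, 10171.39, 7754.67, 10845.04 and 7793.99 FPKM. In both groups some mice lay at 9112.66 FPKM or above (Con 1, 2 and 3 and Exe 3 and 5) and the others at 7793.99 or below, with none between. Means were 8294 ± 1027 and 8602 ± 1499 FPKM (SD, n = 6 each), and the log2 fold change was 0.04 with a 95% interval from -0.215 to 0.304 (limma adjusted p = 0.974). It was 0.0132 without Con 4 and turned to -0.0256 without Exe 5, the highest mouse. In GENCODE M21, 74.8% of the 150-base stretches of the Trf transcript also occur in a transcript of Gm20425. If the authors' annotation held Gm20425, which is not known, the value depends on how their counting split shared reads.

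The receptors for transferrin differed in level and in spread. Tfr2, the hepatocyte receptor that takes part in iron sensing, was among the steadiest of the 10 genes. Con mice had 168.35, 172.06, 169.52, 143.95, 162.29 and 155.09 FPKM, and Exe mice 166.53, 184.23, 174.34, 151.91, 162.80 and 172.87 FPKM. Exe 2, 3 and 6 lay above every control. Means were 161.9 ± 10.69 and 168.8 ± 11.06 FPKM (SD, n = 6 each), and the log2 fold change of 0.06 had a 95% interval from -0.0701 to 0.19 (limma adjusted p = 0.932). It was 0.0269 without Con 4 and 0.00618 with quantile normalization.

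Tfrc, the receptor that brings transferrin into cells, was lower in level and more variable. It was at 4.47, 3.47, 5.41, 6.91, 4.57 and 5.93 FPKM in Con and at 8.65, 7.15, 3.69, 5.19, 3.57 and 6.67 FPKM in Exe. Exe 1 and 2 were above every control, but Exe 3 and 5 were below 5 of the 6 controls. The means of 5.127 ± 1.216 and 5.82 ± 2.025 FPKM (SD, n = 6 each) gave a log2 fold change of 0.12 with a 95% interval from -0.284 to 0.531 (limma adjusted p = 0.957). It was 0.20 without Con 4, 0.0125 without Exe 1 and 0.228 without Exe 5. The pooled within-group SD of Tfrc was at the 95.05th percentile of all genes tested and that of Tfr2 at the 17th. The ratio of Tfr2 to Tfrc was between 19.3 and 49.6 with a median of 30.3, and the exact permutation test between groups gave p = 0.764. Red blood cell precursors are rich in Tfrc, so the markers of red blood cells were set beside it: over 12 mice r was -0.0019 (permutation p = 0.995), with 0.431 within Con and -0.547 within Exe.

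The ferritin genes encode the shells that store iron. Fth1, the heavy chain, was at 1098.21, 1217.29, 1095.91, 1402.07, 1070.30 and 1219.17 FPKM in Con and at 1277.83, 1350.75, 1246.77, 1289.58, 1181.65 and 1106.67 FPKM in Exe. Apart from Con 4, which was the highest of all, 4 of the 6 Exe mice were above every control. Means were 1184 ± 124.9 and 1242 ± 86.43 FPKM (SD, n = 6 each), with a log2 fold change of 0.07 and a 95% interval from -0.0931 to 0.239 (limma adjusted p = 0.933). Without Con 4 the log2 fold change was 0.12, and the exact permutation test gave p = 0.0649.

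Ftl1, the light chain, had 3560.03, 3696.57, 3444.39, 4183.08, 4004.97 and 3663.93 FPKM in Con and 3474.34, 3778.66, 3591.82, 4048.24, 3713.09 and 3949.50 FPKM in Exe. The groups overlapped almost fully, with equal means of 3759 FPKM (SD 279.9 in Con and 215.1 in Exe, n = 6 each). The 95% interval of the log2 fold change ran from -0.15 to 0.153, and the estimate was 0.033 without Con 4 and 0.0979 with quantile normalization. Light over heavy chain was between 2.72 and 3.74 with a median of 3.09, and the exact permutation test of the ratio gave p = 0.37. Of the 150-base stretches of Ftl1, 46% also occur in Ftl1-ps1, Ftl2-ps or Gm15590. Of 16 ferritin and transferrin copies looked for, 5 were in the files, and their sum was between 6.94 and 13 FPKM in Con and between 8.16 and 12.49 in Exe.

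Bmp6, the ligand that raises hepcidin when iron is high, had the lowest level of the 10 genes and the smallest unadjusted p. Con mice were at 0.87, 1.3, 0.91, 1.02, 1.62 and 0.86 FPKM, and Exe mice at 1.42, 2.06, 1.28, 1.02, 1.2 and 1.38 FPKM. Exe 2 was the highest of 12, and 3 of the 6 controls were below every Exe mouse. Means were 1.097 ± 0.3044 and 1.393 ± 0.3564 FPKM (SD, n = 6 each), and the log2 fold change was 0.19 with a standard error of 0.109 and a 95% interval from -0.0442 to 0.425. The unadjusted limma p was 0.103 and the adjusted p 0.852, and the exact permutation test gave p = 0.134. Without Con 5, the highest control, the log2 fold change was 0.26 and the unadjusted limma p was 0.0246. Without Exe 2, the highest of the 12 mice, they were 0.12 and 0.25. The adjusted p stayed between 0.63 and 0.999 over all alternatives run. At about 1 FPKM the pseudocount of 1 understates the fold, and with a pseudocount of 0.1 the log2 fold change was 0.32. Sinusoidal endothelial markers, from the cells that make BMP6, gave r = 0.584 with Bmp6 over the 12 mice (permutation p = 0.0448, 0.313 after Benjamini-Hochberg adjustment over 14 pairs) and rho = 0.543. Within Con r was 0.82 and within Exe 0.212, without the 2 mice farthest in the markers, Con 1 and Con 5, it was 0.397, and without Con 4 it was 0.675 (adjusted permutation p = 0.158). Without Con 1 and Con 5 the permutation p was 0.26, over a narrower range of the markers.

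Hfe, which partners with the transferrin receptors in iron sensing, had the smallest spread. Con mice were at 14.33, 13.60, 13.87, 15.52, 13.86 and 14.23 FPKM, and Exe mice at 12.90, 13.79, 15.90, 14.08, 13.74 and 14.44 FPKM. Exe mice held both the highest and the lowest value. Means were 14.23 ± 0.6837 and 14.14 ± 1.001 FPKM (SD, n = 6 each), and the 95% interval of the log2 fold change was -0.128 to 0.107 (limma adjusted p = 0.986). The log2 fold change was -0.01, and 0.0134 without Con 4. Its within-group SD was at the 7.37th percentile of all genes tested, while Hamp and Hamp2 were at the 99.95th and 99.9th, or at the 96.36th and 99.57th without Con 4.

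**Figure D3:**
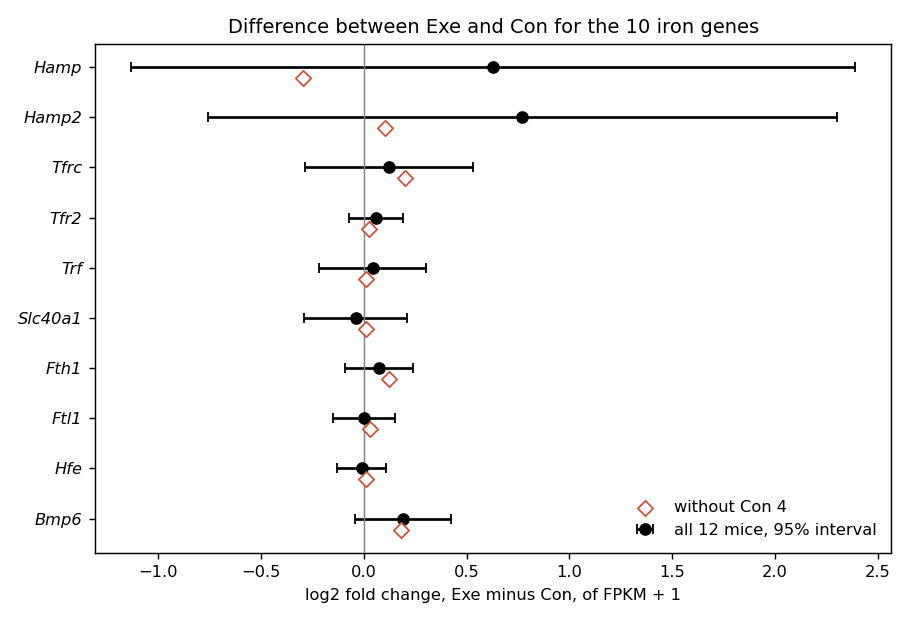
Log2 fold change, Exe minus Con, on log2(FPKM + 1) (horizontal axis) for each of the 10 iron genes (vertical axis), with all 12 mice (black points, bars are 95% intervals) and without Con 4 (open diamonds). All 10 intervals include 0, and Hamp moves from 0.63 to -0.29 without Con 4.

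Across the 10 genes, 0 were past an adjusted p of 0.05 by limma and 0 were at an unadjusted p under 0.05. Over all 10241 genes the adjusted test called 0 (0%, smallest adjusted p 0.519), and 636 genes (6.21%) were at an unadjusted p under 0.05, of which 437 (4.27%) were higher in Exe and 199 (1.94%) lower. With quantile normalization these were 349 and 269. The authors, who used DESeq, did report genes that differed between the groups. The 0 therefore holds for this test on FPKM. In 26 genes (0.254%) the groups of 6 did not overlap, and 0 of the iron genes were among them. Of the 10 genes, 8 had a positive and 2 a negative log2 fold change, with a median of 0.07 against 0.02 for all genes tested. Median ratio scaling made this 7 and 3, as Ftl1 turned, and leaving out Con 4 made it 9 and 1. Without Con 4 the count at an unadjusted p under 0.05 was again 0. The intervals of the 10 genes allow for different things. For Tfr2, Fth1, Ftl1 and Hfe they ended at or below 0.239 in either direction, whereas those of Hamp and Hamp2 reached beyond 2 on the log2 scale, so that with all 12 mice a several-fold change in hepcidin mRNA could not be told from the spread between them.

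By mean FPKM, which is per length and so allows genes to be compared, the order was Trf (8448), Ftl1 (3759), Fth1 (1213), Hamp (1067), Tfr2 (165.3), Hamp2 (39.26), Slc40a1 (35.67), Hfe (14.19), Tfrc (5.473) and Bmp6 (1.245). Fth1 and Hamp overlapped over mice, as did Hamp2 and Slc40a1. Hamp overlapped with Tfr2 only because of Con 4. The wide range of Hamp2 (1.25 to 101.29 FPKM) also took in those of Hfe and Tfrc and part of that of Bmp6. The ranges of Trf, Ftl1 and Fth1 did not overlap with each other, nor did those of Slc40a1, Hfe, Tfrc and Bmp6.

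The relations between hepcidin and its known inputs were computed over mice for 14 pairs. By Pearson's r none passed after Benjamini-Hochberg adjustment over the 14. Hamp and Hamp2 gave r = 0.824 (permutation p = 0.0251, adjusted 0.313) and rho = 0.49, but r was 0.947 within Con and -0.814 within Exe. Without Con 4 r was 0.185. Without Con 4 and Exe 2, the mice farthest in Hamp2, r was 0.632 and rho 0.661 (permutation p = 0.047 and 0.0438, adjusted 0.165 and 0.157), so the value depends on both mice. The ratio of Hamp to Hamp2 was 7.24 in Exe 2 and 53.1 in Con 2, with a median of 37.3, and the exact permutation test between groups gave p = 0.632. Exe 2, with the highest Hamp2 of all mice, had the lowest Hamp of its group.

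Hjv, the gene of hemojuvelin, the BMP co-receptor of hepatocytes, ran opposite to Hamp by rank. Hjv was at 46.01, 49.69, 37.59, 57.1, 32.62 and 47.98 FPKM in Con and at 44.26, 49.42, 57.39, 44.48, 52.63 and 52.79 FPKM in Exe. The highest Hamp (Con 5) went with the lowest Hjv, and the lowest Hamp (Con 4) with the second highest Hjv. Spearman's rho was -0.804 (permutation p = 0.00242, adjusted 0.0339 over the 14 pairs and 0.0678 over both measures of the 14), while Pearson's r was -0.531 (permutation p = 0.0878, adjusted 0.41). Within Con rho was -0.943 and r -0.728, and within Exe -0.543 and -0.441. Without Con 4 rho was -0.773 (adjusted permutation p = 0.103), and without Con 3 and Con 5, the mice farthest in Hjv, r was -0.558 (adjusted permutation p = 0.165). The sign held in each of these subsets, and the adjusted p did not stay under 0.05.

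For the other inputs the pooled values were weak or changed sign. Hamp and Tfr2 gave r = 0.5 and rho = -0.287 over all mice. Within Con r was 0.76, and within Exe it was -0.839 (permutation p = 0.0375, adjusted 0.263). Without Con 4 r was -0.596 and rho -0.673 (permutation p = 0.0514 and 0.028, adjusted 0.24 and 0.196). Hamp and Bmp6 gave r = 0.106 and rho = -0.259. Hamp and the 12 acute-phase genes gave r = 0.317 and rho = 0.042 (permutation p = 0.398 and 0.903). Hamp and the BMP target genes Id1 and Smad7 gave r = 0.0702 and -0.338. Hamp with Hfe gave r = -0.503, with Slc40a1 -0.36 and with Tfrc -0.248, and Fth1 with Ftl1 gave 0.282, none past a permutation p of 0.05. For Slc40a1 the value was -0.772 within Exe and -0.351 within Con, -0.635 without Con 1 and Con 5, the mice farthest in Slc40a1 (permutation p = 0.00621, adjusted 0.0869), and 0.0163 without Con 4.

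**Figure D4:**
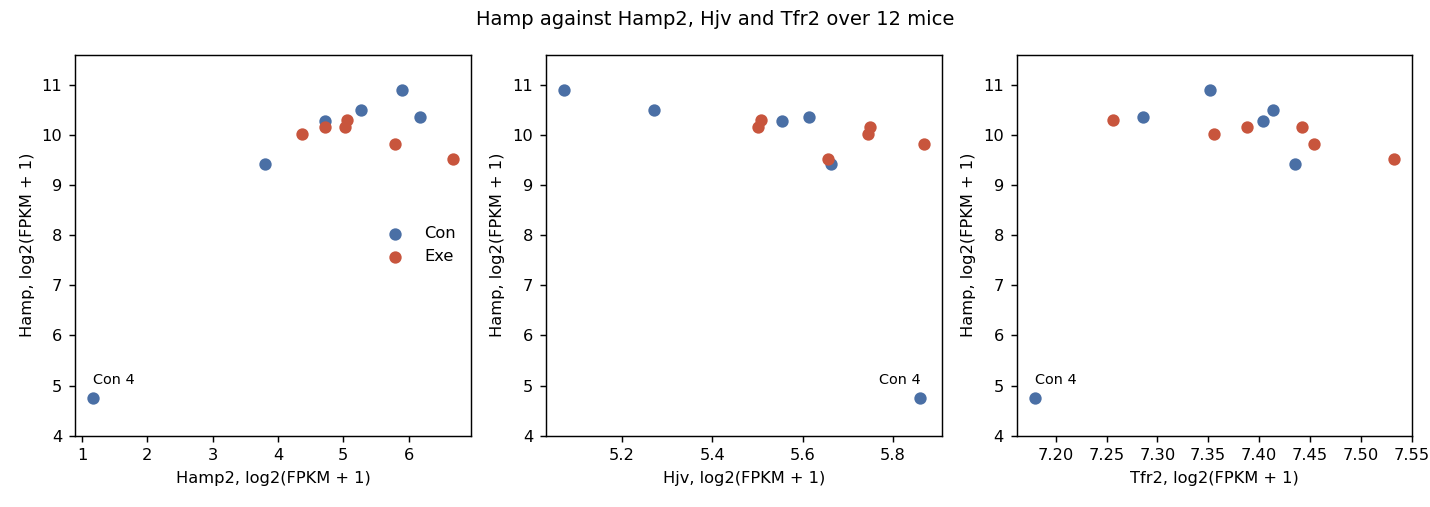
Hamp on log2(FPKM + 1) (vertical axes) against Hamp2, Hjv and Tfr2 on the same scale (horizontal axes) in 6 Con mice (blue) and 6 Exe mice (red). Con 4 stands alone at the foot of each panel, Hjv runs opposite to Hamp (rho = -0.804), and r with Hamp2 is 0.824 with Con 4 and 0.185 without it.

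The genes whose pattern over the 12 mice was most like that of Hamp were Fkbp5 (r = 0.741), Wdr55 (0.735), Gm14325 (0.729), Ccne1 (0.714) and Xkr8 (0.713), out of 10231 genes compared. All 5 were lowest in Con 4. Without Con 4 r was 0.506, 0.39, 0.0769, 0.862 and -0.12 in the same order, with Ccne1 the highest of the 5. For Tfrc they were Skp1 (0.918), Foxo3 (0.916), Rabggta (0.902), Lactb2 (0.901) and Hadh (0.888), between 0.894 and 0.932 without Con 4. These are descriptions of the closest of many genes, which share libraries, and carry no test.

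The wider set of genes around hepcidin was counted against the 6.21% of all genes at an unadjusted p under 0.05. Of 23 genes of BMP-SMAD hepcidin control, 21 were tested and 0 were at an unadjusted p under 0.05, with a median log2 fold change of 0.04. Hjv was at 45.16 ± 8.79 FPKM in Con and 50.16 ± 5.16 in Exe, and Tmprss6, the protease that cleaves hemojuvelin, at 160.1 ± 12.3 and 161.1 ± 13.6 (SD, n = 6 each). Erfe, which red blood cell precursors make to lower hepcidin, was at 0.01 FPKM or below on average in both groups. Of 11 genes of the interleukin-6 and CREBH inputs, 9 were tested, and 1 was higher and 1 lower at an unadjusted p under 0.05 (2 of 9, or 22.2%, against 6.21% of all genes). Il6st, the shared receptor subunit that signals to STAT3, was at 13.89 ± 0.968 FPKM in Con and 16.6 ± 1.26 in Exe (SD, n = 6 each), a log2 fold change of 0.24 (limma p = 0.00182, adjusted p = 0.657, exact permutation p = 0.00433). Socs3, a STAT3 target that restrains the pathway, was at 6.3 ± 3.59 and 3.653 ± 0.821 FPKM, a log2 fold change of -0.55 (limma p = 0.0305, adjusted p = 0.793, exact permutation p = 0.0368), with Con 1 at 13.27 FPKM. Il6 itself was too low to be tested. It was listed at 0 in all 6 Exe mice and at a mean of 0.0783 FPKM in Con. Con 1 and Con 3 were also at 0, and the other controls were at 0.06 to 0.14 FPKM.

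Of 33 genes of iron and heme handling, 32 were in the files and 28 were tested, and 1 (3.57%) was at an unadjusted p under 0.05, against a median log2 fold change of 0.00264 for the list, which was -0.0108 with median ratio scaling. It was Steap3, the ferrireductase of the transferrin cycle, at 8.473 ± 1.31 FPKM in Con and 10.48 ± 1.99 in Exe (SD, n = 6 each), a log2 fold change of 0.27 (limma p = 0.0389, adjusted p = 0.799, exact permutation p = 0.0693). The most abundant were the scavenger genes Hpx (6002 and 4869 FPKM) and Hp (4236 and 4080 FPKM) and the ferroxidase gene Cp (330.0 and 357.1 FPKM). The iron regulatory protein genes Aco1 and Ireb2 had log2 fold changes of 0.11 each, and Ncoa4, the receptor for ferritin breakdown, was at 40.77 and 40.73 FPKM.

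Marker lists that could carry these genes were counted the same way, against the same 6.21% of all genes. All 12 acute-phase genes had a negative log2 fold change (median -0.23; 10 of 12 with quantile normalization), with 0 at an unadjusted p under 0.05, and their sum was between 7754 and 37760 FPKM in Con and between 7751 and 37900 in Exe. Of 10 red blood cell markers 5 were tested (median log2 fold change 0.75), and 1 of these (20.0%), Hbb-bs, was at an unadjusted p under 0.05 (127.1 ± 74.8 FPKM in Con, 212.3 ± 98.4 in Exe, adjusted p = 0.799 by limma). The sum of the list was between 235.1 and 903 FPKM in Con and between 400.4 and 1290 in Exe. Of 10 hepatocyte markers 2 were higher (Alb and Cps1) and 1 lower (Tat) at an unadjusted p under 0.05, and of 11 endothelial markers (median 0.08), 9 stellate cell markers (median -0.13), 3 tested neutrophil markers and 1 tested pancreatic acinar marker none were.

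**Figure D5:**
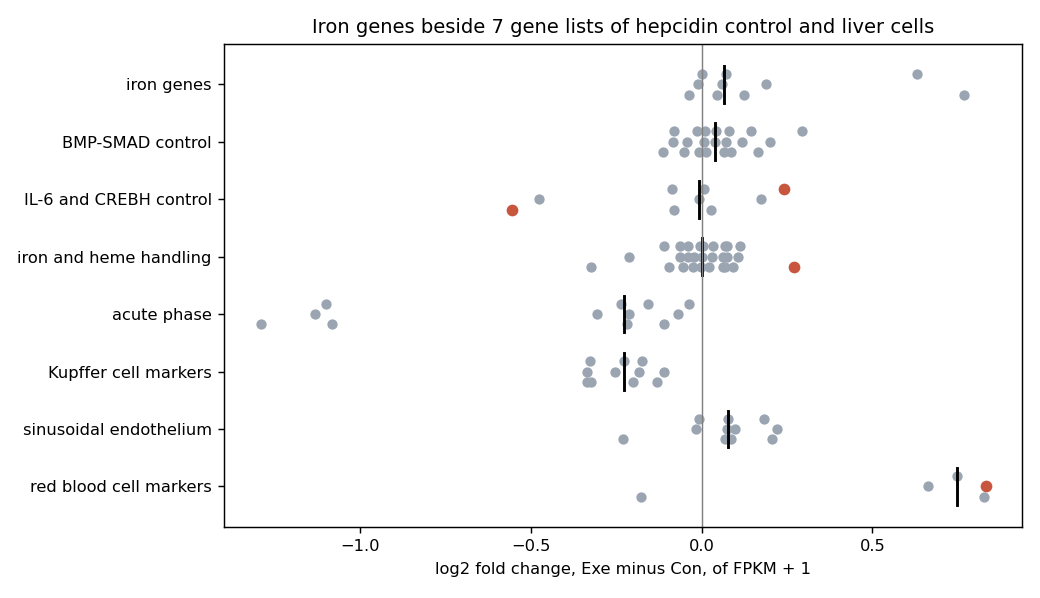
Log2 fold change, Exe minus Con, on log2(FPKM + 1) (horizontal axis) of each gene tested in the iron genes and in 7 lists (vertical axis), red where the unadjusted limma p was under 0.05, with the median of the list as a black line. None of the 10 iron genes is red, and the medians run from -0.23 for the acute phase and Kupffer cell lists to 0.75 for the red blood cell list.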

How the data were processed

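RNA libraries were made from the livers of 12 mice, 6 Con and 6 Exe. The authors aligned clean reads with HISAT to GRCm39 and deposited FPKM to 2 decimals. The submitters' processing notes also name Bowtie2 and mm10, with no role. The tool and annotation behind the FPKM are not given in the sources used here. The authors compared groups with DESeq, which needs counts and was not used. Groups were taken from the sample titles.

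The 10 genes and the gene lists were chosen with earlier results of these data known. A pseudocount of 1 was added before log2. Genes reaching 1 FPKM in 6 or more of the 12 mice entered a fit with limma 3.58.1 (R 4.3.3; lmFit with the group, eBayes with trend, two-sided, Benjamini-Hochberg adjustment), with thresholds of an adjusted p of 0.05 and a log2 fold change of 1. The fit was tested on simulated data. Single genes and ratios were also compared by an exact two-sided permutation test, whose smallest p for 6 against 6 is 0.00216. Correlations on log2(FPKM + 1) had 100000 permutations over 10 or more mice and exact permutations within groups of 6. Percentiles of spread were taken over the genes tested. Other steps used Python 3.11.15 with scipy 1.17.1, pandas 2.3.3 and numpy 2.4.6, and figures matplotlib 3.10.9.

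The genes named were all 10 iron genes, genes of the control and handling lists at an unadjusted p under 0.05 and up to 6 of the most abundant of each list, both genes of each correlated pair, the 5 genes most correlated with Hamp and with Tfrc, and at most 3 from each set of cell markers. Aco1, Ireb2, Ncoa4, Erfe, Il6, Slc39a14, Itih4, Lcn2, Serpina3n, Mup17, Mup15 and Cd99 were named after their values were seen. So were Egfl7, Pecam1, Ecm1 and Colec11. The alternatives were a pseudocount of 0.1, no filter, a filter at a mean of 5 FPKM, quantile normalization, scaling by median ratios, robust moderation, the replicate block, an acute-phase covariate and each mouse left out. Correlations and exact tests without Con 4 were added after seeing the data. Promoters came from the RefSeq table of GRCm38.p6. Shared stretches of 150 bases were counted over GENCODE M21 transcripts.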

Additional observations from a re-analysis of the deposited data

Results flagged for a closer look

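In 62 sets of 6 values (the iron genes on the linear and the log2 scale, their ratios and the marker sums, each per group), Dixon's ratio exceeded 0.625, the critical value at 95%, in 5. Chance flags about 1 in 20 groups. Hamp in Con 4 was at 4.75 on log2(FPKM + 1), against 9.42 to 10.9 in the other 5 controls (ratio 0.761), and on the linear scale it did not stand out. The ratio of Ftl1 to Fth1 was 3.74 in Con 5 against 2.98 to 3.24 in the other controls (0.658). In Exe 5 the acute-phase sum was 37900 FPKM, and 7751 to 13912 elsewhere in its group (0.796). The neutrophil marker sum was 36.09 FPKM in Con 1 against 13.51 to 21.8 FPKM (0.633), and the pancreatic acinar marker sum in Exe 5 was 35.62 FPKM, with 13.14 to 16.92 in the others (0.832). Hamp in Exe 5 was 1029.76 FPKM, inside the range of its group.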

How the results depend on the processing

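Of 199 alternative values for the log2 fold changes of the 10 iron genes, 183 kept their sign and their side of the threshold and 16 turned their sign. No iron gene was past an adjusted p of 0.05 under any alternative run. Without Con 5, 1 iron gene (Bmp6) was at an unadjusted p under 0.05, so that with each mouse left out the count ran from 0 to 1. With each mouse left out, the log2 fold change ran from -0.29 to 0.94 for Hamp, 0.10 to 1.10 for Hamp2, 0.0125 to 0.228 for Tfrc, 0.0269 to 0.0897 for Tfr2, 0.0450 to 0.123 for Fth1, 0.117 to 0.257 for Bmp6, -0.0231 to 0.0330 for Ftl1, -0.117 to 0.0302 for Slc40a1, -0.0425 to 0.0139 for Hfe and -0.0256 to 0.0854 for Trf. Ftl1 was at -0.0128 with median ratio scaling and at -0.0256 with the acute-phase covariate. That covariate also moved Hamp to 0.891, Hamp2 to 0.825, Tfrc to 0.0403, Trf to 0.116 and Slc40a1 to -0.0828. Quantile normalization moved Ftl1 to 0.0979, Trf to 0.0991, Tfr2 to 0.00618, Slc40a1 to -0.0629 and Hfe to -0.0188, and median ratio scaling moved Hfe to -0.0235. All genes at an unadjusted p under 0.05 numbered 418 without Exe 2 to 905 without Exe 5, 354 higher and 275 lower with median ratio scaling, and with no filter 1 gene was past an adjusted p of 0.05 (smallest 0.0476).

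No pairing by replicate number was seen. The deviations of mice with the same number correlated at -0.478 to 0.165, and only for 1 number did the control correlate best with its own. The sample titles do not say whether the numbers pair mice, and these correlations cannot exclude it. With the replicate block 567 genes were at an unadjusted p under 0.05, 0 of them iron genes.

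Of 56 alternative correlations 24 turned their sign. Within Con these were r of Hamp with Id1 (-0.0865), Tfrc with red blood cell markers (0.431) and Slc40a1 with Kupffer cell markers (-0.174). Within Exe they were Hamp with Bmp6 (-0.812), Smad7 (0.367), Hamp2 (-0.814), Tfr2 (-0.839) and Tfrc (0.0414), and Fth1 with Ftl1 (-0.212). Without the 2 farthest mice they were Hamp with Id1 (-0.0344), Tfr2 (-0.64) and Hfe (0.236), Tfrc with red blood cell markers (0.36), Slc40a1 with Kupffer cell markers (-0.043) and Fth1 with Ftl1 (-0.227). Without Con 4 they were Hamp with Bmp6 (-0.357), Id1 (-0.155), Smad7 (0.0553), Tfr2 (-0.596), the acute-phase genes (-0.156), Tfrc (0.129) and Slc40a1 (0.0163), Slc40a1 with Kupffer cell markers (-0.0233) and Fth1 with Ftl1 (-0.0115). The cause was not tested.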
